A study of Chlamydomonas reinhardtii with 6 samples.

Results

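The genes described here encode enzymes of the Calvin-Benson cycle in the unicellular green alga Chlamydomonas reinhardtii. They were chosen by gene identifier as a list of 10 nuclear genes: RBCS1, RBCS2, RCA1, PRK1, SEBP1, FBP1, GAP3, FBA3, RPE1 and TRK1. Of these, 9 were among the 13452 genes of the expression table. GAP3 (Cre01.g010900), which encodes the glyceraldehyde 3-phosphate dehydrogenase of the cycle's reduction step, had no row there and was not analysed here.

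The strain was CC-125 (137c mt+), a wild type, grown as 6 independent dish cultures, 3 per group, and RNA of each was sequenced, so replicate spread takes in variation between cultures. All cultures had grown for 4 days in TAP, a medium that contains acetate, to the stage labelled stationary, and all stood under white light kept at 3.6 µmol per m2 and s, together with narrowband UV-B lamps (0.07 mW/cm2). For 1 h, cells of the UV-B group received the UV-B through a filter with half-maximal transmission at 311 nm, while a filter with its half-maximum at 360 nm kept it from the no UV-B group. The groups therefore differ in all light between the edges of the filters, and both were acetate-fed cultures in weak light.

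The cycle fixes carbon dioxide in the chloroplast stroma with ATP and NADPH from the light reactions. Rubisco joins carbon dioxide to ribulose bisphosphate, a reduction phase makes triose phosphate, and aldolase, bisphosphatases, transketolase, isomerase, epimerase and phosphoribulokinase rebuild the acceptor. In this alga Rubisco sits largely in the pyrenoid, its large subunit is encoded in the chloroplast and not analysed here, and its small subunit comes from the adjacent nuclear genes RBCS1 and RBCS2. Several of the enzymes are controlled after translation, through thioredoxin and redox state, which transcript data do not measure.

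After 1 h of UV-B, 5 of the 9 measured genes had fallen, 1 had risen and 3 did not pass the test. The falls were in TRK1, FBA3, RCA1, RBCS2 and SEBP1 and were 1.27-fold to 1.67-fold. The rise was in RBCS1, a call that not every test made, and FBP1, RPE1 and PRK1 were those without a call. The test was limma on log2(normalised read count + 1) over all 13415 genes that reached a value of 1 in at least 3 libraries, with Benjamini-Hochberg adjustment and a threshold of 0.05. All 9 genes passed that filter in both groups, since their lowest value in any library was 18.0. Of all genes tested 59.0% were called, 29.6% as lowered and 29.5% as raised, and the counts of 5 lowered and 1 raised of 9 are to be read against those shares. The median log2 fold change was -0.34 over the 9 genes and 0.00037 over all genes tested. The groups did not overlap in 5 of the 9 genes, all of them lower in UV-B, a pattern found in 31.6% of all genes tested. No gene of the 9 changed 2-fold, and 0 of the 9 are in the authors' deposited table of genes changed more than 2-fold, which holds 19.3% of the genes.

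**Figure D1:**
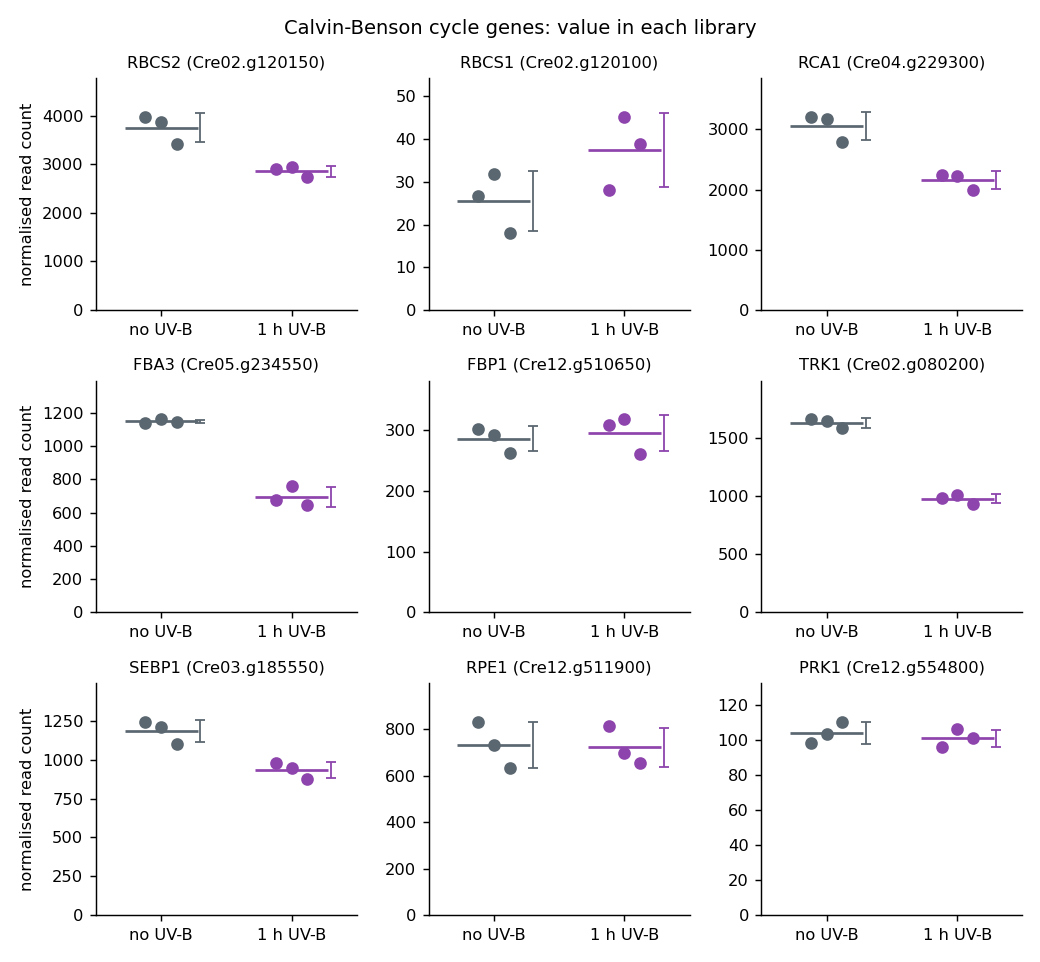
Normalised read count (y axis, from 0) of each gene in each of the 6 libraries; points are libraries, horizontal lines group means and side bars ± 1 SD (n = 3 per group). The UV-B points lie below every no UV-B point in RBCS2, RCA1, FBA3, TRK1 and SEBP1, and the groups overlap in RBCS1, FBP1, RPE1 and PRK1.

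Libraries held 7868534 to 11972794 reads assigned to genes. A gene of the list had 216 to 40996 reads in a library, and at least 784 when RBCS1 is left out. Values are reads relative to an effective library size, so a fall is relative to the rest of the RNA, and less transcript per cell cannot be told apart from fewer cells that express a gene. Values are not divided by transcript length, which the sources used here do not give, so levels are not ranked between genes. The treatment could be read in LHCSR1 (Cre08.g365900), an energy-dissipation gene of the light-harvesting family, whose normalised read count was 584 to 748 without UV-B and 4624 to 5775 with it. Coefficients of variation within groups were 0.873% to 13.5% in 8 of the genes and reached 27.5% in RBCS1.

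Carboxylation was represented by the small subunit genes and by Rubisco activase. RBCS2 (Cre02.g120150), which contributes most of the small-subunit reads, had normalised read counts of 3969, 3874 and 3410 without UV-B and 2890, 2939 and 2730 with UV-B. All UV-B libraries lay below all no UV-B libraries. The mean went from 3751 ± 299 to 2853 ± 109 (SD, n = 3). The log2 fold change, given with its standard error, was -0.39 ± 0.085 (limma adjusted p = 0.000225).

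RBCS1 (Cre02.g120100) had normalised read counts of 26.7, 31.8 and 18.0 without UV-B and 28.1, 45.2 and 38.9 with UV-B. Here the groups overlapped, because the first UV-B library lay below the second no UV-B library. The mean was 25.5 ± 6.99 without UV-B and 37.4 ± 8.65 with it, and the log2 fold change was 0.55 ± 0.14 (limma adjusted p = 0.00156). That call was not made by every test: the adjusted p was 0.0649 in limma without a mean-variance trend and 0.118 in DESeq2 on the recovered reads. Without the third no UV-B library the log2 fold change was 0.32 (limma adjusted p = 0.0349), and it was 0.40 without the second UV-B library (limma adjusted p = 0.0354).

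The balance within the pair was also read inside each library. RBCS1 took 0.667%, 0.814% and 0.524% of the small-subunit reads without UV-B and 0.962%, 1.51% and 1.41% with UV-B, a share without overlap between the groups. The 95% Wilson intervals, which cover counting error only, ran from 0.459% to 0.923% over the no UV-B libraries and from 0.860% to 1.66% over the UV-B libraries. The log2 ratio of RBCS2 to RBCS1 went from 7.18 ± 0.30 to 6.24 ± 0.35 (SD, n = 3), a difference of -0.94 and a 1.92-fold lower ratio. A two-sided exact permutation test over the 6 libraries gave p = 0.10, the smallest this design allows, so the ratio could not reach the threshold of 0.05. The genes are neighbours and encode nearly identical proteins. The sources used here do not say how reads matching both were counted, which leaves the split of reads within the pair uncertain.

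**Figure D2:**
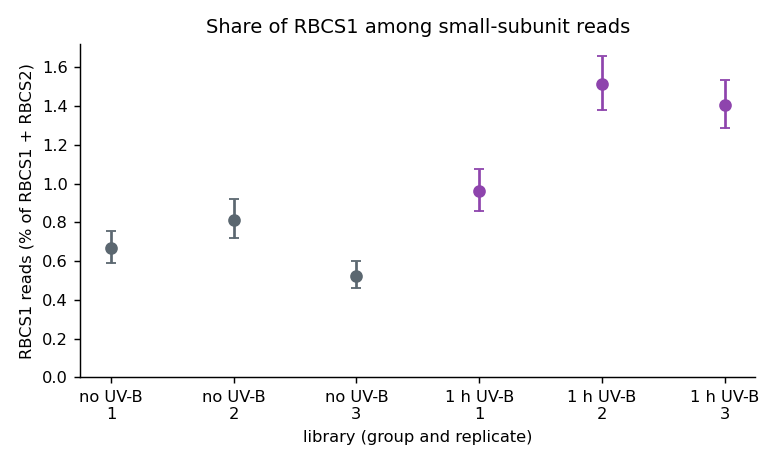
Reads of RBCS1 as a percentage of RBCS1 plus RBCS2 reads (y axis, from 0) in each library; bars are 95% Wilson intervals of counting error. The 3 no UV-B libraries lie between 0.524% and 0.814% and the 3 UV-B libraries between 0.962% and 1.51%.

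RCA1 (Cre04.g229300) encodes Rubisco activase, the ATPase that frees Rubisco active sites from bound sugar phosphates. Its normalised read counts were 3205, 3177 and 2796 without UV-B and 2249, 2232 and 1986 with UV-B, with no overlap. The mean fell by 29.5%, from 3059 ± 229 to 2156 ± 148, a log2 fold change of -0.50 ± 0.084 (limma adjusted p = 6.25e-06).

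In the regeneration phase, the genes for aldolase and transketolase fell the most of the list. TRK1 (Cre02.g080200) encodes transketolase, which moves carbon pairs between sugar phosphates and acts at more than a single step of the cycle. Its normalised read counts were 1655, 1638 and 1579 without UV-B and 984, 1007 and 931 with UV-B. No library of either group came near the other, and the mean fell by 40.0%, from 1624 ± 39.8 to 974 ± 39.0. The log2 fold change was -0.74 ± 0.072 (95% interval -0.89 to -0.59, limma adjusted p = 3.78e-10), and 12.1% of all genes tested had a lower one.

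FBA3 (Cre05.g234550) encodes a fructose-bisphosphate aldolase, the enzyme that makes the fructose and sedoheptulose bisphosphates of the cycle. Its normalised read counts were 1140, 1159 and 1145 without UV-B, the tightest group of the list, and 674, 758 and 648 with UV-B. The mean fell by 39.6%, from 1148 ± 10.0 to 693 ± 57.5, a log2 fold change of -0.73 ± 0.073 (95% interval -0.88 to -0.58, limma adjusted p = 5.76e-10). The falls of FBA3 and TRK1 were thus of nearly the same size.

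The bisphosphatase genes differed in their calls. SEBP1 (Cre03.g185550) encodes sedoheptulose bisphosphatase, which takes a phosphate from the sedoheptulose bisphosphate that aldolase makes. Its normalised read counts were 1244, 1211 and 1105 without UV-B and 981, 945 and 877 with UV-B, with no overlap. The mean fell by 21.3%, from 1187 ± 72.6 to 934 ± 52.5, a log2 fold change of -0.34 ± 0.074 (95% interval -0.50 to -0.19, limma adjusted p = 0.000203).

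FBP1 (Cre12.g510650) encodes fructose-1,6-bisphosphatase, the counterpart of SEBP1 on the fructose side. Its normalised read counts were 302, 293 and 263 without UV-B and 308, 318 and 262 with UV-B, so that the groups lay over each other. The log2 fold change was 0.046 ± 0.076 (limma adjusted p = 0.619), and its 95% interval of -0.11 to 0.20 does not overlap that of SEBP1. The difference between the responses of the 2 genes was not tested as such.

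RPE1 (Cre12.g511900), the ribulose-phosphate 3-epimerase that converts xylulose phosphate to ribulose phosphate, had normalised read counts of 832, 730 and 635 without UV-B and 817, 696 and 654 with UV-B. Both groups spread over the same range, and their coefficients of variation, 13.5% and 11.7%, were the highest after those of RBCS1. The log2 fold change was -0.018 ± 0.087 (limma adjusted p = 0.873), with a 95% interval of -0.19 to 0.16.

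PRK1 (Cre12.g554800) encodes phosphoribulokinase, which uses ATP to make the carbon dioxide acceptor and, like SEBP1, acts in no other pathway of carbon metabolism. Its normalised read counts were 97.8, 103 and 110 without UV-B and 95.8, 106 and 101 with UV-B, which overlap. The log2 fold change was -0.042 ± 0.073 (limma adjusted p = 0.643). Its 95% interval of -0.19 to 0.11 corresponds to folds of 0.876 to 1.08, so falls of the size seen in TRK1 and FBA3 lie outside it.

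**Figure D3:**
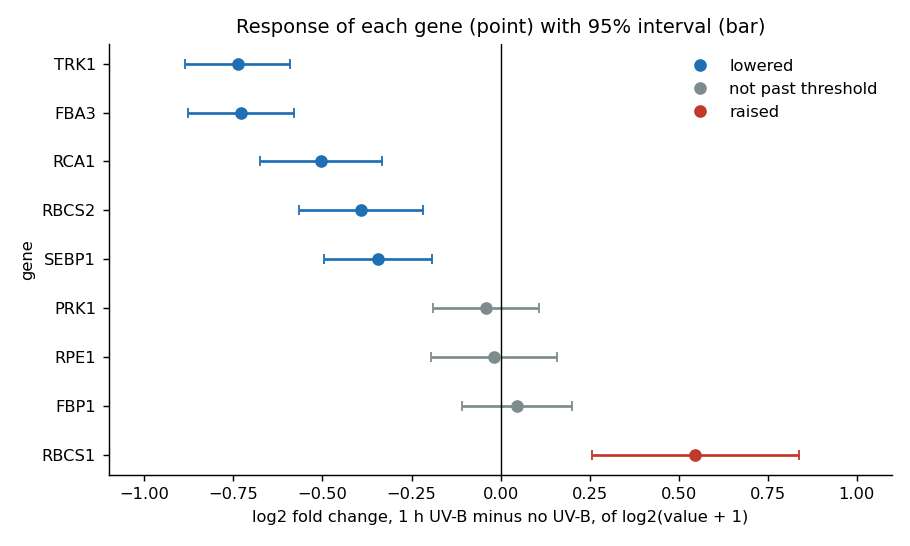
Log2 fold change of each gene, 1 h UV-B minus no UV-B, of log2(value + 1) (x axis), with its 95% interval from limma; colour gives the call at an adjusted p of 0.05. From TRK1 at -0.74 to SEBP1 at -0.34 the intervals lie below 0, those of PRK1, RPE1 and FBP1 cross 0, and RBCS1 lies above it.

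In the order of log2 fold changes, TRK1, FBA3, RCA1, RBCS2, SEBP1, PRK1, RPE1, FBP1 and RBCS1, the 95% intervals of neighbours overlapped at every step except from SEBP1 to PRK1, where the gap was narrow (upper bound -0.193, lower bound -0.191), and from FBP1 to RBCS1. The intervals of TRK1 and FBA3 lay wholly below those of RBCS2 and SEBP1. Against all genes the changes were moderate: the median log2 fold change of the 5 lowered genes was -0.50, and that of all 3965 lowered genes was -0.65. Both medians hold only genes that passed the test, and a gene measured less precisely needs a larger change to pass. Standard errors were 0.072 to 0.085 in the 5 genes, against a median of 0.137 over all genes tested. The log2 fold changes of the 9 genes lay between the positions that 12.1% and 81.3% of all genes tested fell below.

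**Figure D4:**
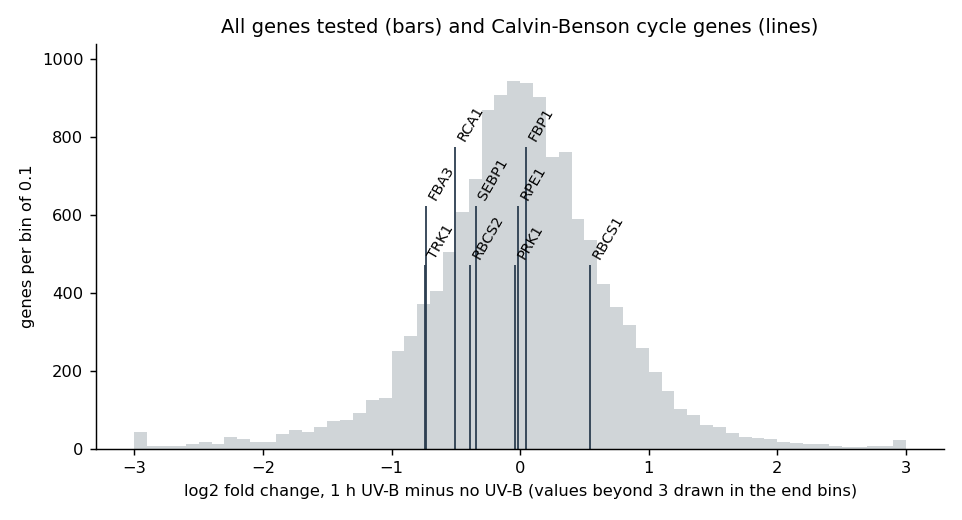
Distribution of the log2 fold changes of all genes tested (grey bars, genes per bin of 0.1) with each Calvin-Benson cycle gene as a line at its own log2 fold change; line height has no meaning. TRK1 and FBA3, at -0.74 and -0.73, stand on the left flank, 3 genes stand near 0 and RBCS1, at 0.55, stands on the right flank.

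Together the 9 genes took 1.15%, 1.18% and 1.11% of all reads without UV-B and 0.920%, 0.920% and 0.886% with UV-B. The share was lower in every UV-B library, and the mean went from 1.15% ± 0.0336 to 0.909% ± 0.0200 (SD, n = 3). Without RBCS2, the gene with the most reads, the shares were 0.786% ± 0.0177 and 0.613% ± 0.0184. Each of the 5 lowered genes had at least 55266 reads over all libraries, and each of the others at most 44061. The share therefore follows mainly the 5 falls already given and is no separate result about the 9 genes. Within groups, the third library had the lowest value in 7 of 9 genes without UV-B, in 7 of 9 with UV-B, and in 6 genes in both. The share of all genes tested that were lowest there was not computed, so these counts are not read as a trait of the 9 genes. The authors' normalization factors were also highest in the third libraries, 1.00 and 1.08. The 9 genes' share of all reads, which does not use these factors, was lowest there too. The part of this variation between libraries in the results was not tested. The 5 lowered genes were called when either of these libraries was left out alone, and both were never left out together.

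A further 7 identifiers listed for the pathway were in the expression table but had no description in the sources used here. Their values are not given, whatever their change. Other genes could be named only by words in the annotation of the authors' deposited table, which lists genes changed more than 2-fold. That such genes pass the test is therefore no independent evidence of a response, and they do not stand for the pathway. By those words 3 further genes were found and all 3 fell, but the annotation places none of them in the cycle itself. Cre12.g485150, described as a glyceraldehyde 3-phosphate dehydrogenase and categorised under glycolysis, went from normalised read counts of 319, 303 and 308 to 46.8, 57.2 and 66.7. Its groups were far apart, with a log2 fold change of -2.44 ± 0.086 (limma adjusted p = 1.62e-20). A transaldolase gene (g15197), whose product shuffles sugar phosphates in the non-reductive pentose phosphate pathway, went from 40.5, 41.7 and 37.1 to 4.43, 7.63 and 4.06. Its log2 fold change was -2.72 ± 0.14 (limma adjusted p = 1.97e-16), and -2.91 in edgeR on the recovered reads. Cre06.g311050 matched by a transketolase domain but is categorised as a pyruvate dehydrogenase subunit, and its mean went from 64.3 ± 2.52 to 21.5 ± 1.07.

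A gene outside the word list was chosen after the annotation was seen, because its category names the Calvin cycle. This gene, g13400, is placed under glyceraldehyde 3-phosphate dehydrogenase by category and under aldehyde dehydrogenases by domain. It is also in the authors' table of genes changed more than 2-fold, so its passing the test is no independent evidence of a response. It went from 15.2, 18.9 and 12.6 to 53.3, 46.5 and 42.7, and all UV-B libraries lay above all others. The log2 fold change was 1.56 ± 0.11 (limma adjusted p = 4.03e-13). Of 11 other identifiers listed for the pathway, 1 is the glycolytic gene above, 7 were in the table without a name or description in the sources used here and are not described, and 3 had no row.

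**Figure D5:**
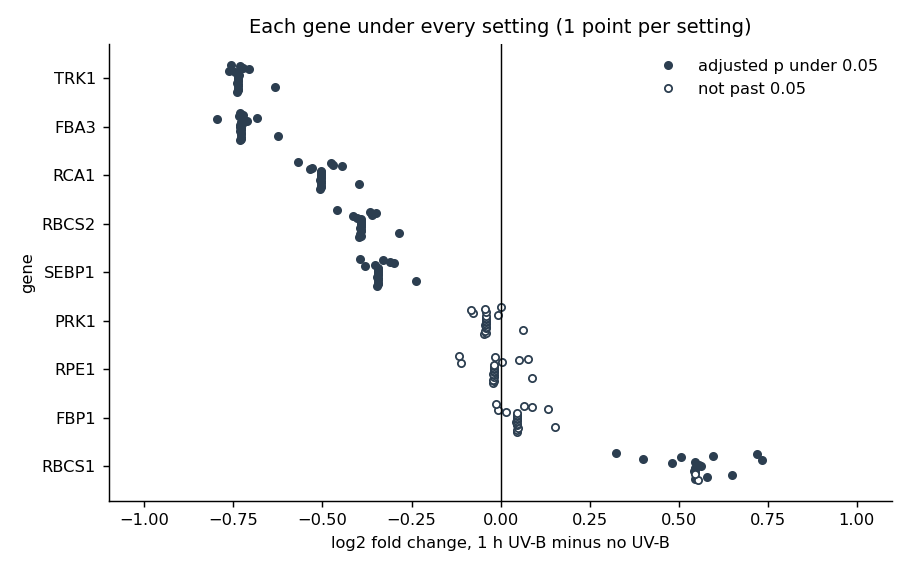
Log2 fold change (x axis) of each gene under each of 19 settings, the one reported included; filled points passed an adjusted p of 0.05 and open points did not. TRK1, FBA3, RCA1, RBCS2 and SEBP1 have only filled points left of 0, PRK1, RPE1 and FBP1 only open points around 0, and RBCS1 has 17 filled points of 19.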

How the data were processed

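The authors deposited a table of normalised values for 13452 genes, a CPM-like signal: reads per gene divided by an effective library size, per the file contents. The tools named per the submitters' processing notes are edgeR 3.4.2, HTSeq 0.5.3p9 and TopHat2, while build, gene models and strand setting are not given in the sources used. A second table deposited by the authors holds log2 fold changes and p-values (false discovery rates) of their comparison for 2596 genes; of it, annotation and membership were used.

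Columns were matched to samples by description and title. All values (100%) were whole multiples of 1 read within 0.01 reads. Because the values are not counts, limma 3.58.1 (R 4.3.3) with a mean-variance trend was fitted to log2(value + 1) of 13415 genes. Such fold changes are too small for low values. On the recovered reads, edgeR 4.0.16 called 7936 genes and DESeq2 1.42.0 called 6830, against 7920. As a check of the code, the fit was run on drawn counts with known changes in a small part of the genes. Those counts held no variation shared within a library, so the check does not measure error rates in the real data. Symbols came from the gene list, since the RefSeq table (assembly v5.5) holds all 10 loci without symbols; it served only to see that RBCS1 and RBCS2 are adjacent. Python 3.11.15 and SciPy 1.17.1 made the other tables.

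Named genes were all members, annotated pathway genes, and 1 treatment check. Members and lists were chosen with earlier results of these data known. Alternatives were pseudocounts of 0.1, 0.5 and 5, filters, scalings, limma without a trend, count models, an adjusted p of 0.01, the replicate number as a covariate, and each library left out.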

Additional observations from a re-analysis of the deposited data

How the results depend on the processing

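Every alternative called the same number of lowered genes of the list, 5, including the replicate block, which also left 1 raised gene. Same-numbered cultures are not labelled as pairs, and the correlations of their deviations across genes were 0.045, 0.024 and 0.12. Not every culture correlated best with its own number, so the numbers were not taken to pair them. With the block 8102 of all genes were called, against 7920. Each gene of the list had a smaller limma adjusted p with the block, for example 5.67e-09 against 6.25e-06 in RCA1 and 7.41e-07 against 0.000225 in RBCS2. Whether the cultures were matched by number was not tested further. The paired difference in the log2 ratio of RBCS2 to RBCS1 was -0.94. With groups of equal size it must equal the difference between the group means, so its size is no check of that result. The rise of RBCS1 was lost in limma without a trend and in DESeq2, leaving 0 raised genes there (unadjusted p of RBCS1 0.0385 in limma, so 1 gene at 0.05, and 0.0689 in DESeq2, so 0); the cause was not tested. Its log2 fold change lay between 0.32 and 0.73 over all settings. With equal library totals the median log2 fold change of all genes tested moved to 0.09, from 0.00037. PRK1 and RPE1 then changed sign, to 0.064 and 0.088, and FBP1 went from 0.046 to 0.15 (limma adjusted p = 0.0829). The 5 falls were smaller in that setting, from -0.24 in SEBP1 to -0.63 in TRK1. With 1 library left out, log2 fold changes ran from -0.083 to 0.0015 in PRK1, from -0.12 to 0.078 in RPE1 and from -0.013 to 0.13 in FBP1, none past the threshold. Scaling by TMM equalled the deposited values. Counting error was largest in RBCS1, 6.80% in the library with its fewest reads, 216. Its coefficients of variation within groups, 27.5% without UV-B and 23.1% with UV-B, were well above that.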
